A study of Mus musculus with 5 samples.

Results

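Wnt ligands bind Frizzled receptors and LRP co-receptors at the cell surface, and in the canonical branch this keeps β-catenin from being degraded, so that it can act with TCF/LEF factors on target genes. Cells tune the signal outside the cell with secreted antagonists and inside it with feedback inhibitors that the pathway itself switches on. In skin, Wnt signals act in the dermis and in the hair follicle, and different fibroblast populations make different antagonists. The genes described here are 10 such regulators among the 31053 genes of the matrices: Wif1, Sfrp1, Sfrp2, Sfrp4, Frzb, Dkk2, Dkk3, Apcdd1, Axin2 and Wnt5a. They were taken by symbol, and each symbol matched 1 gene. Secretion is a property of most but not all of them, since Apcdd1 encodes a membrane glycoprotein and Axin2 an intracellular scaffold, while Wnt5a encodes a ligand and not an antagonist.

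Single cells of ventral skin were captured from 28-day-old C57BL/6J mice with a droplet method that counts tags at the 3′ end of transcripts. The 3 Ikkb_cKO libraries came from mice labelled Prx1Cre+Ikkbf/f, in which Cre driven by an enhancer of Prrx1, a gene of limb and trunk mesenchyme, removes floxed Ikkb in that lineage and its descendants. The 2 WT libraries came from mice labelled wild type, with no Cre or floxed allele named. Each library pooled 2 mice, so the p-values measure the spread between libraries, which may be technical. IKKβ, the product of Ikkb (Ikbkb in current nomenclature), is the kinase that frees NF-kB from its inhibitors.

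The Ikkb_cKO libraries were shallower and differed among themselves. Total UMIs were 2163166, 2350022 and 9738296 in Ikkb_cKO, against 14659158 and 16773096 in WT. After filtering, 5498 of 10393 cells were fibroblast-like, 520, 483 and 860 in Ikkb_cKO libraries 1, 2 and 3, against 1760 and 1875 in WT. Their median UMIs per cell were 1541, 1754 and 2448.5 in Ikkb_cKO, against 4790.5 and 5299 in WT. All 15 listed fibroblast genes were detected, but clusters were named from these genes, so this is no separate check of the name. Their summed levels were 49753, 50763 and 75511 CPM in Ikkb_cKO, against 57724 and 57213 CPM in WT. CPM is the usual depth-scaled count, taken over all UMIs of the summed class. The leucocyte gene Ptprc stayed at or below 2.77 CPM and the glial gene Sox10 was at 0 in every library. Summed marker lists of other types were not at 0. Schwann cell genes had 251 to 612 CPM and lymphocyte genes 452 to 1051 CPM over the libraries. Ikbkb itself had 16.3, 21.2 and 15.6 CPM in Ikkb_cKO, against 14.3 and 18.1 CPM in WT, and the genotypes overlapped. Which stretch is deleted was not given in the sources used here. A 3′ tag outside it cannot check the deletion. The median mitochondrial share of a fibroblast-like cell's UMIs was 3.48%, 3.23% and 3.40% in Ikkb_cKO, against 2.08% and 2.13% in WT. Libraries shared at most 17 cell barcodes in any pair.

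Ikkb_cKO library 3 stood apart from libraries 1 and 2 in the makeup of its fibroblast-like cells. Of 10 fibroblast-like clusters, cluster 3 (led by Col6a5, Ltc4s and Smpd3) held 61.2%, 60.9% and 10.0% of the class in Ikkb_cKO, against 0.0568% and 0% in WT. Cluster 24 (Ndufa4l2, Cyp2f2, Nov) held 0.769%, 1.45% and 35.6% in Ikkb_cKO, against 7.95% and 6.13% in WT. Cluster 23 (Coch, Fmod, Igfbp2) held 1.54%, 2.48% and 14.5% in Ikkb_cKO, against 1.99% and 2.13% in WT. Results that rest on library 3 are given below with and without it. A class sum does not separate the number of cells of a cluster from the level per cell. For the members, levels within clusters therefore stand beside the class values.

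Wif1, Sfrp2 and Dkk2 carry much of what follows, and up to 250 bases before the annotated start of each are shown because NF-kB and TCF/LEF are the DNA-binding endpoints of the deleted kinase and of the Wnt pathway. The sequences are RefSeq's for GRCm38.p6, at chr10:121033754-121033959 for Wif1, chr3:83766071-83766320 for Sfrp2 and chr3:132085042-132085291 for Dkk2, all on the plus strand. RefSeq's start of Wif1 lies 44 bases inside the gene as the GENCODE annotation places it, so the Wif1 sequence stops before the GENCODE gene and has 206 bases. The promoter table held 5 of the 10 members, these 3 with Frzb and Axin2. Each is written 5′ to 3′, and capitals mark the letters TATAAA on either strand, a TATA box motif added to the search after the sequences were seen. Matches were counted in the table's windows, which also take in the 50 bases after the start, and 13.6% of all 32851 windows hold TATAAA.
Wif1: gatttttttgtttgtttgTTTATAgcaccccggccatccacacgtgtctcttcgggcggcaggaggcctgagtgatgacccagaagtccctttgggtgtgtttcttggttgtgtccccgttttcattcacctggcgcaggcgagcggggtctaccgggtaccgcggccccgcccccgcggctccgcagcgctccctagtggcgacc
Sfrp2: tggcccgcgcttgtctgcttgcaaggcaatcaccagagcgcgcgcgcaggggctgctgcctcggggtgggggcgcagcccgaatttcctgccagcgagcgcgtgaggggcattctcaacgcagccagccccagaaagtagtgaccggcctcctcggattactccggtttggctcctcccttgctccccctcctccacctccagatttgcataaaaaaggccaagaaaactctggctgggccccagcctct
Dkk2: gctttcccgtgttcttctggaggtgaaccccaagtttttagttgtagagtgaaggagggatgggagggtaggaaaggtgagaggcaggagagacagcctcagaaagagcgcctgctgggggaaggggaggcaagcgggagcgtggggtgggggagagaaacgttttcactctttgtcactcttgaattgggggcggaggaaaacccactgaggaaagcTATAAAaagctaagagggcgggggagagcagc
Counted from RefSeq's start, the match began 32 bases before it in Dkk2 and lay 232 bases before it in Wif1, there on the other strand. The NF-kB motif, written GGG, any 2 bases, then TTTCC, was in none of the 5 windows on either strand, and 1.63% of all windows held it. The TCF/LEF motif CTTTGAT was in none of the 5 either, and 3.73% of all windows held it. These counts say only which letters stand in these windows.

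In the fibroblast-like class as a whole (all its UMIs summed in each library), Sfrp4 and Sfrp2 were lower and Wif1 was higher in Ikkb_cKO skin. The other 6 members that could be tested did not pass the threshold, and Frzb had too few UMIs for the test. Of 9 tested members 1 was called higher and 2 lower at an adjusted p of 0.05 (edgeR's quasi-likelihood test with Benjamini-Hochberg adjustment), beside 17.4% of all 10441 genes called higher and 18.2% called lower, 35.6% in all. The members' share of calls was therefore near that of all genes. The median log2 fold change was 0.06 over the 9 tested members and 0.04 over all tested genes. Library values did not overlap between genotypes for 3 of the 9, beside 60.8% of all tested genes.

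**Figure D1:**
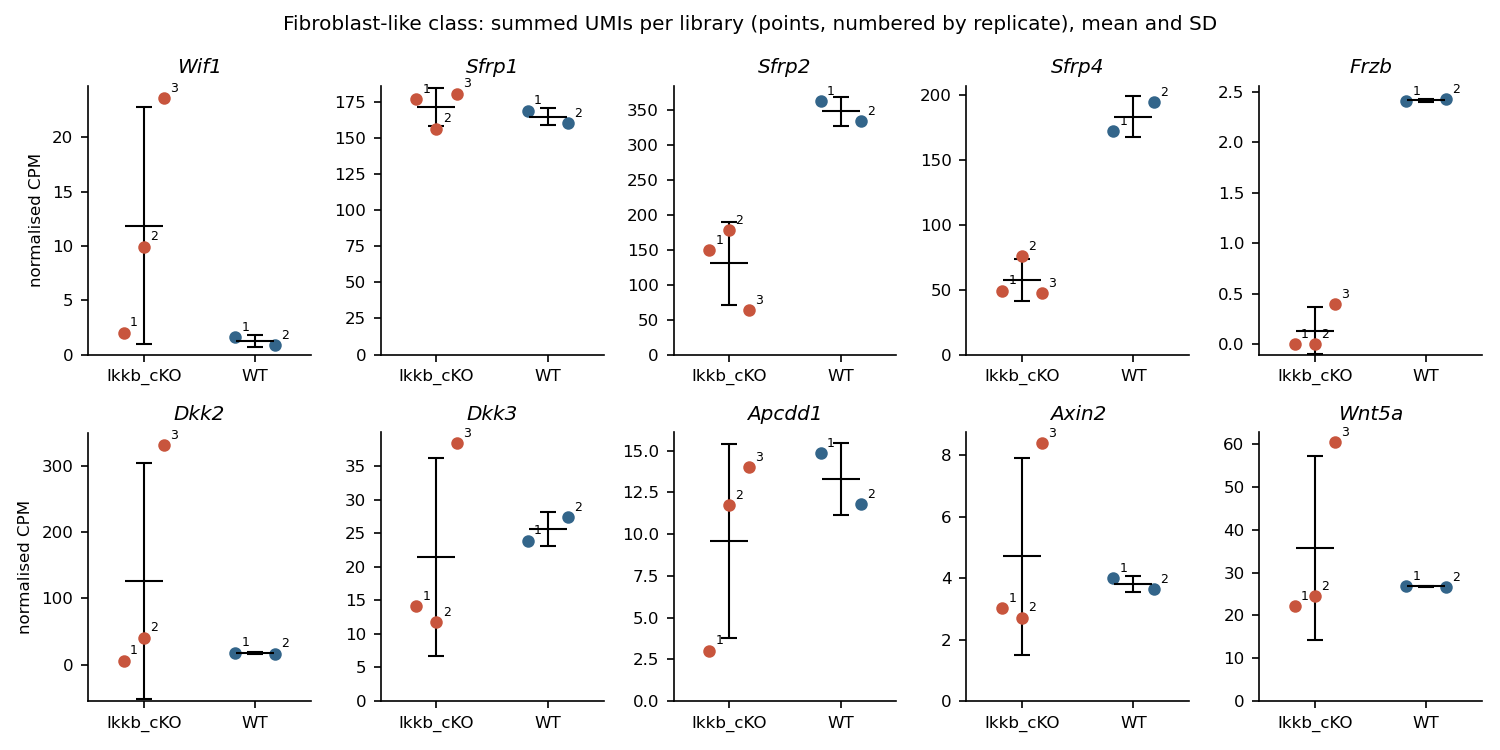
Levels of the 10 members in the fibroblast-like class, in TMM-normalised CPM on the y axis, with Ikkb_cKO libraries left of WT libraries. Points are libraries numbered by replicate, with the mean and SD of each genotype. Sfrp2 and Sfrp4 lie lower in all 3 Ikkb_cKO libraries, and the Dkk2 point of Ikkb_cKO library 3, at 331, lies far above the other 4.

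The secreted Frizzled-related proteins carry a Frizzled-like cysteine-rich domain and bind Wnts outside the cell. Sfrp4, on chromosome 13 from 19623104 to 19632994 of the plus strand, had 49.3, 76.0 and 47.2 normalised CPM (scaled by TMM) in Ikkb_cKO, against 172 and 194 in WT. All 3 Ikkb_cKO libraries lay below both WT libraries. The means were 57.5 ± 16.0 in Ikkb_cKO (SD, n = 3) and 183 ± 15.7 in WT (SD, n = 2). By edgeR's quasi-likelihood test the log2 fold change was -1.68, with an SE of 0.22 and an adjusted p of 0.00302. The call held in all 22 alternative settings, among them each left-out library. Markers of mural cells moved with it: the summed level of 11 listed genes was 92.5, 82.2 and 188 CPM in the Ikkb_cKO class sums, against 443 and 468 CPM in WT. The mural gene Rgs5 was at 0, 0 and 3.13 CPM in Ikkb_cKO, against 0.294 and 0.428 CPM in WT. The part of mural markers and of the mitochondrial share in the lower levels of Sfrp4 and Sfrp2 was not tested.

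Sfrp2, on chromosome 3 from 83766321 to 83774316 of the plus strand, had 150, 178 and 63.6 normalised CPM in Ikkb_cKO, against 363 and 334 in WT. The groups did not overlap, and Ikkb_cKO library 3 was the lowest. The log2 fold change was -1.44 (SE 0.40, adjusted p = 0.0385 in edgeR). The call ended when either WT library or Ikkb_cKO library 1 was left out, with log2 values between -1.39 and -1.54 and adjusted p in edgeR between 0.0705 and 0.213. It also ended with no low-count filter, with equal cells per library and with Ikkb_cKO libraries 1 and 2 summed, and the sign stayed negative in all 22 settings.

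Sfrp1, on chromosome 8 from 23411502 to 23449632 of the plus strand, had 177, 156 and 181 normalised CPM in the Ikkb_cKO class sums, against 169 and 160 in WT. The groups overlapped, and the log2 value of 0.06 (SE 0.13) did not pass in edgeR (adjusted p = 0.752). Frzb, the gene of the third secreted Frizzled-related protein, had 0, 0 and 1 UMI in Ikkb_cKO, against 24 and 28 UMIs in WT. Its ratio of summed UMIs, each as a share of class UMIs, was 0.0911 with a 95% counting interval of 0.00226 to 0.530, which covers counting error only. With no low-count filter Frzb could be tested, and its log2 value was -3.44 (adjusted p = 0.0190 in edgeR). It could also be tested with 1 Ikkb_cKO library left out, where it passed without library 3 (adjusted p = 0.0117) and not without library 1 (adjusted p = 0.0536) or library 2 (adjusted p = 0.0554 in edgeR).

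Shares of cells with a UMI gave the same order for Sfrp4 when every cell was thinned to 1000 UMIs, which leaves shallower cells out. An Sfrp4 UMI was then found in 5.07%, 6.15% and 3.70% of fibroblast-like cells in Ikkb_cKO, against 10.8% and 11.9% in WT. Before thinning the shares were 8.27%, 12.2% and 6.16% in Ikkb_cKO, against 24.2% and 26.7% in WT. Sfrp1 shares moved more with thinning in WT than in Ikkb_cKO. Before thinning they were 13.5%, 15.9% and 17.8% in Ikkb_cKO, against 33.4% and 33.9% in WT. After thinning they were 12.3%, 11.2% and 12.2% in Ikkb_cKO, against 13.4% and 12.5% in WT. For Sfrp2 the thinned shares were 11.7%, 15.5% and 4.25% in Ikkb_cKO, against 16.2% and 17.8% in WT, and before thinning 20%, 23.8% and 8.84% in Ikkb_cKO, against 34.8% and 37.3% in WT. In myeloid-like cells, which should lack these genes, no Ikkb_cKO cell held an Sfrp1, Sfrp2 or Sfrp4 UMI, and at most 0.614% of WT cells did before thinning. Their median UMIs per cell were 1643, 1529 and 2464.5 in Ikkb_cKO and 2551.5 and 2689 in WT. For thinning, 145, 109 and 131 fibroblast-like cells were left out in Ikkb_cKO, against 84 and 82 in WT.

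Wif1 encodes Wnt inhibitory factor 1, which binds Wnt ligands directly, and it lies on chromosome 10 from 121033960 to 121100650 of the plus strand. In the fibroblast-like class it had 2.01, 9.95 and 23.6 normalised CPM in Ikkb_cKO, against 1.60 and 0.867 in WT. Both WT libraries were below all Ikkb_cKO libraries, though library 1 of Ikkb_cKO was close to them. Shares of cells with a Wif1 UMI overlapped before thinning, at 0.192%, 0.621% and 2.21% in Ikkb_cKO, against 0.341% and 0.320% in WT. Thinned to 1000 UMIs they were 0.267%, 0.535% and 1.37% in Ikkb_cKO, against 0.119% and 0.112% in WT. The log2 fold change of the class sums was 3.51 (SE 0.77, adjusted p = 0.0179 in edgeR). It came from 2, 11 and 59 UMIs in Ikkb_cKO and 16 and 10 in WT. Without Ikkb_cKO library 3 it was 2.33 (adjusted p = 0.00239 in edgeR). The call ended with no low-count filter (adjusted p = 0.0605) and with equal cells per library (adjusted p = 0.0671 in edgeR). It also ended when WT library 1 (log2 3.82, adjusted p = 0.160) or WT library 2 (log2 2.95, adjusted p = 0.215) was left out of the edgeR fit.

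Most Wif1 UMIs came from cluster 23, the cluster led by Coch. It held 67 of the 72 fibroblast-like Wif1 UMIs in Ikkb_cKO and 22 of 26 in WT. These lay in few of its cells, 1, 3 and 15 in Ikkb_cKO, against 4 and 6 in WT. Within the cluster the level was 147, 395 and 120 CPM in Ikkb_cKO, from 8, 12 and 125 cells, against 112 and 71.6 CPM in WT, from 35 and 40 cells. This cluster had under 20 cells in 2 Ikkb_cKO libraries, so its levels were not tested. When its cells were left out, too few Wif1 UMIs remained for the class test. Keratinocyte genes were highest in library 3, as Wif1 was: the summed level of 16 listed markers was 33.6, 55.4 and 160 CPM in Ikkb_cKO, against 69.5 and 75.3 CPM in WT. Schwann cell genes did likewise, with 283, 273 and 612 CPM over 10 listed markers in Ikkb_cKO, against 266 and 251 CPM in WT. Lymphocyte genes were also highest in library 3, with 452, 496 and 1051 CPM over 27 listed markers in Ikkb_cKO, against 702 and 754 CPM in WT. Endothelial genes were higher in all 3 Ikkb_cKO libraries, as Wif1 was, with 21.4, 32.3 and 41.4 CPM over 12 listed markers in Ikkb_cKO, against 11.4 and 13.3 CPM in WT. B cell genes were also higher in all 3, with library 3 the lowest of them. They had 89.5, 70.2 and 47.7 CPM over 9 listed markers in Ikkb_cKO, against 19.3 and 22.1 CPM in WT. The part of these marker lists in the results on Wif1 and in those that rest on library 3 was not tested. Krt14 had 0, 0 and 4.69 CPM in the Ikkb_cKO class sums, against 0 and 0.257 CPM in WT. The endothelial gene Pecam1 had 0, 0 and 1.56 CPM in Ikkb_cKO, against 0.294 and 0.343 CPM in WT, and the T cell gene Cd3e was at 0 in Ikkb_cKO, against 0.588 and 0.257 CPM in WT.

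**Figure D2:**
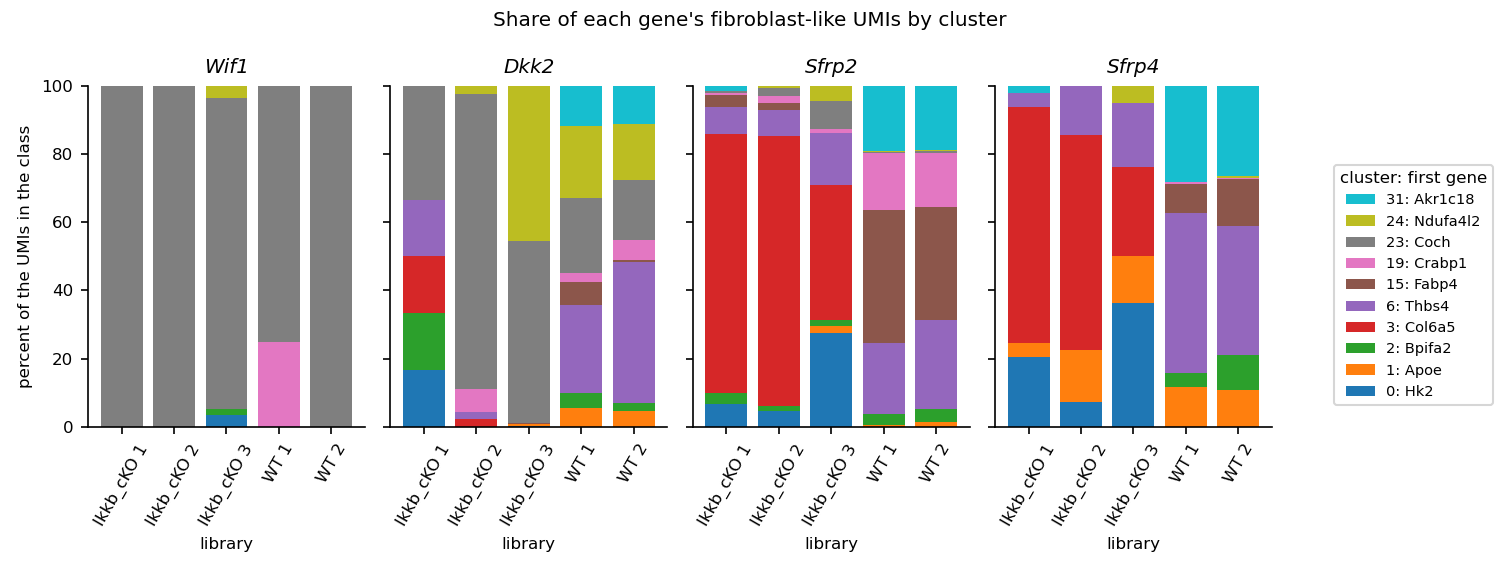
Share of the fibroblast-like UMIs of Wif1, Dkk2, Sfrp2 and Sfrp4 (percent, y axis) that came from each fibroblast-like cluster, by library, with Ikkb_cKO left of WT. Wif1 UMIs lie mostly in cluster 23, led by Coch (75% or more in every library), while in Ikkb_cKO libraries 1 and 2 most Sfrp2 and Sfrp4 UMIs lie in cluster 3, led by Col6a5.

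The Dickkopf proteins are secreted, and Dkk2 binds the LRP co-receptors. Dkk2, on chromosome 3 from 132085292 to 132180304 of the plus strand, had 6.04, 40.7 and 331 normalised CPM in the Ikkb_cKO class sums, against 17.9 and 16.3 in WT. Library 3 of Ikkb_cKO was far above every other library, library 2 was moderately above WT and library 1 below it. The log2 fold change was 2.95 (SE 1.38) and did not pass (adjusted p = 0.151 in edgeR), and without Ikkb_cKO library 3 it was 0.50 (adjusted p = 0.654 in edgeR). The size also depended on the method, at 0.48 with limma voom (adjusted p = 0.756). With the replicate block in edgeR it was 0.49 (adjusted p = 0.719). Library 3 of Ikkb_cKO has no WT partner in that block. The block value therefore rests on Ikkb_cKO libraries 1 and 2, as does the fit without library 3. Without Ikkb_cKO library 1 the log2 fold change was 3.48 (adjusted p = 0.0508 in edgeR).

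The Dkk2 UMIs of library 3 lay in clusters 23 and 24, with 53.3% and 45.5% of them. In WT these clusters held 21.8% and 21.2% of the Dkk2 UMIs in library 1, and 17.6% and 16.5% in library 2. Both clusters took a larger part of the class in library 3, and within them its level was above both WT libraries. In cluster 23 Dkk2 had 147, 1400 and 984 CPM in Ikkb_cKO, against 365 and 236 CPM in WT. In cluster 24 it had 0, 63.9 and 452 CPM in Ikkb_cKO, from 4, 7 and 306 cells, against 101 and 94.4 CPM in WT, from 140 and 115 cells. In cluster 6 the order was the other way, with 11.6, 9.28 and 0 CPM in Ikkb_cKO, against 30.4 and 49.2 CPM in WT, from 2 UMIs in all in Ikkb_cKO and 124 in WT. With so few UMIs in Ikkb_cKO, Dkk2 was below the filter in cluster 6, and the ratio of pooled CPM was 0.158 with a 95% counting interval of 0.0190 to 0.584. With no low-count filter Dkk2 was lower there (adjusted p = 0.00284 in edgeR). With the filter it could be tested when 1 Ikkb_cKO library was left out. It then passed without library 1 (adjusted p = 0.0368) and not without library 2 (adjusted p = 0.0702) or library 3 (adjusted p = 0.0922 in edgeR).

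Dkk3, a divergent Dickkopf member with a less settled role in Wnt signalling, had 14.1, 11.8 and 38.4 normalised CPM in the Ikkb_cKO class sums, against 23.9 and 27.4 in WT. The groups overlapped because library 3 of Ikkb_cKO was the highest and libraries 1 and 2 the lowest of the 5, and the log2 fold change was -0.12 (SE 0.45, adjusted p = 0.856 in edgeR). Without library 3 it was -0.998 and passed (SE 0.26, adjusted p = 0.00179 in edgeR). In cluster 23, where Dkk3 was highest in both genotypes among clusters with 20 or more cells, it had 368, 215 and 93.7 CPM in Ikkb_cKO, against 178 and 165 CPM in WT.

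Apcdd1, a membrane inhibitor of Wnt signalling, had 3.02, 11.8 and 14.0 normalised CPM in the Ikkb_cKO class sums, against 14.8 and 11.8 in WT (log2 -0.34, SE 0.42, adjusted p = 0.548 in edgeR). With single libraries left out it lay between -0.00016 without Ikkb_cKO library 1 and -0.80 without Ikkb_cKO library 3 (adjusted p = 0.0859 in edgeR). Axin2, a scaffold of the complex that degrades β-catenin and a widely used target gene of the pathway, had 3.02, 2.71 and 8.40 normalised CPM in Ikkb_cKO, against 4.01 and 3.64 in WT (log2 0.55, SE 0.45, adjusted p = 0.364 in edgeR). Wnt5a, a ligand best known for β-catenin-independent signalling, had 22.1, 24.4 and 60.4 normalised CPM in Ikkb_cKO, against 26.9 and 26.6 in WT (log2 0.51, SE 0.41, adjusted p = 0.369 in edgeR). For Axin2 and Wnt5a, library 3 lay above WT and libraries 1 and 2 below it. Without library 3 the fitted signs turned, to -0.41 for Axin2 (adjusted p = 0.587) and -0.20 for Wnt5a (adjusted p = 0.461 in edgeR). When cluster 3 was left out, a setting chosen after seeing the data, Wnt5a was at 0.91 and passed (adjusted p = 0.0417 in edgeR).

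Within the class the members differed in where they were highest, here described in the WT libraries for clusters with 20 or more WT cells. Sfrp1 was highest in cluster 6 (Thbs4, Cilp, Hmcn2), at 498 and 501 CPM, then in cluster 24 at 395 and 475 CPM. Cluster 19 (Crabp1, Cdkn1c, Inmt) had 235 and 219.5 CPM of Sfrp1 and cluster 2 (Bpifa2, Smr3a, Amy1) had 174 and 191 CPM. These 4 clusters did not overlap between libraries, whereas the next 2, clusters 1 and 15, did, at 46.7 to 62.1 CPM.

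Sfrp2 was high in WT clusters 6, 31 and 19, with library values of 422 to 636 CPM that overlapped, so their order is not resolved. Cluster 31 was led by Akr1c18, Pi16 and Anxa3. Cluster 15, led by Fabp4, a gene of the fat cell lineage, Timp1 and Car3, followed with 359 and 289 CPM of Sfrp2, and the other 4 clusters had 8.0 to 143 CPM. Sfrp4 was highest in cluster 6, at 534 and 536 CPM in WT. Clusters 31 and 1 (Apoe, Vtn, Inmt) overlapped at 358 to 381 CPM of Sfrp4, and cluster 23 had no Sfrp4 UMI in 75 WT cells, which allows up to 12.2 CPM.

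Cluster 23 was the WT maximum of another set of members. Dkk2 (365 and 236 CPM), Dkk3 (178 and 165 CPM) and Apcdd1 (196 and 122 CPM) were each highest there without overlap with the next cluster. Axin2 reached 18.7 and 21.5 CPM there from 2 and 3 UMIs, and 15.7 and 12.3 CPM in cluster 19 from 18 UMIs in each library. Wnt5a was found in all 8 of these WT clusters, at 14.2 to 47.6 CPM. Frzb was found chiefly in cluster 15, with 40 of its 52 WT UMIs at 4.81 and 4.79 CPM.

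**Figure D3:**
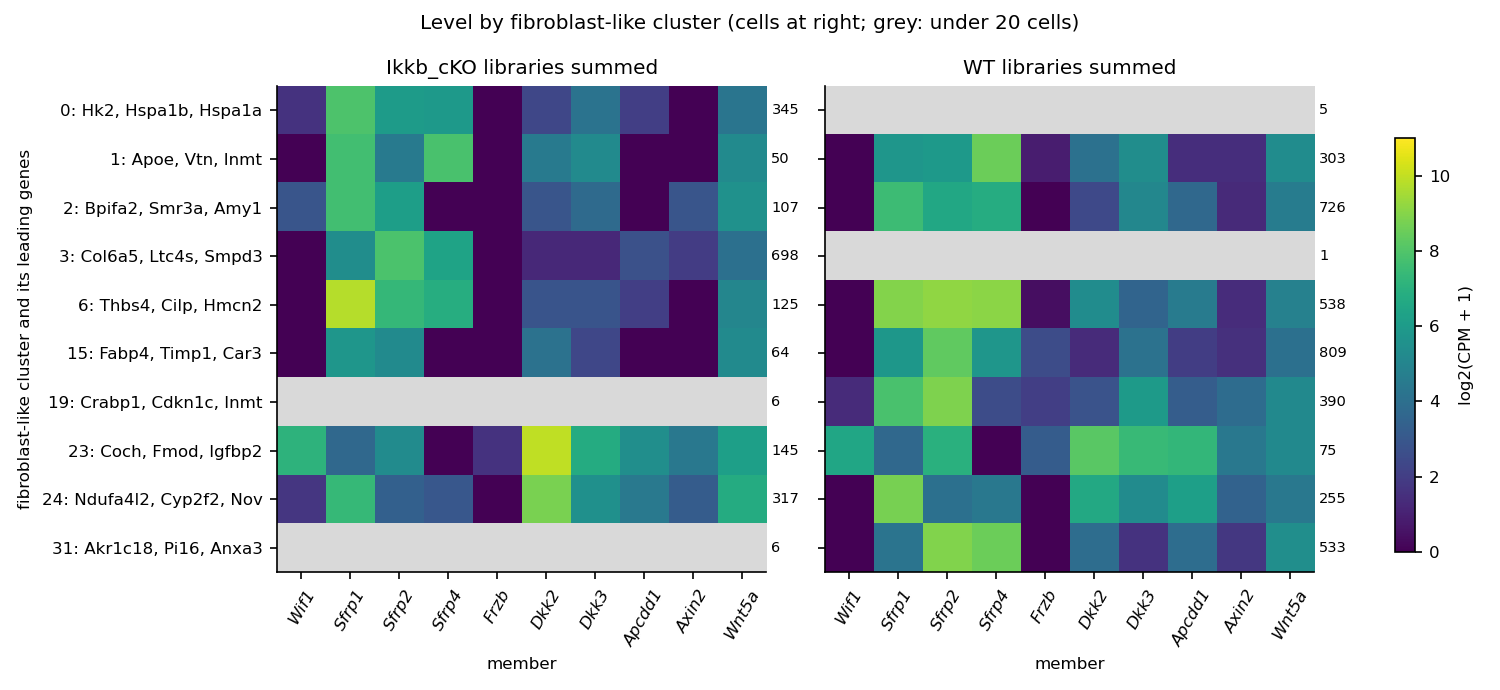
Level of each member by fibroblast-like cluster, as log2(CPM + 1) of the summed libraries, with Ikkb_cKO left of WT; numbers are cells and grey marks fewer than 20. Dkk2, Dkk3, Apcdd1 and Wif1 are brightest in cluster 23 in WT, while Sfrp4 is bright in clusters 6, 31 and 1 and at 0 in cluster 23.

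Across the 8 clusters with 20 or more WT cells, the levels of Dkk2 and Apcdd1 were most alike (Pearson r = 0.85 of log2(CPM + 1)), and those of Sfrp4 and Axin2 were most unlike (r = -0.92). Wif1 was most like Axin2 (r = 0.73) and Frzb (r = 0.72). These points share the same 2 libraries and differ in depth per cell, and several rest on few UMIs, so they are a description of these clusters.

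Clusters 0 and 3 were made up almost wholly of Ikkb_cKO cells, 345 of 350 and 698 of 699, so their levels have no WT counterpart. In cluster 3 Sfrp2 had 203, 244 and 290 CPM and Sfrp4 had 61.1, 82.9 and 143 CPM in the 3 Ikkb_cKO libraries. Cluster 3 held 75.8%, 79.2% and 39.6% of the Sfrp2 UMIs of the Ikkb_cKO class. In cluster 0 (Hk2, Hspa1b, Hspa1a), where heat shock genes led, Sfrp1 had 292, 191 and 240 CPM and Sfrp2 had 78.9, 90.6 and 58.4 CPM. Clusters 19 and 31, high in Sfrp2 in WT, had 6 cells each in Ikkb_cKO, against 390 and 533 cells in WT.

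Only clusters 2 and 6 had at least 20 cells in every library and could be compared between genotypes. In cluster 6 Sfrp2 and Sfrp4 were lower and Sfrp1 was higher in Ikkb_cKO. All 3 members that passed the filter were called there, 1 higher and 2 lower, beside 40.3% of 1929 tested genes called in either direction, 20.6% higher and 19.6% lower. The 3 that passed are the members with the most UMIs in that cluster, and the other 7 were not tested. Library values did not overlap for any of these 3, beside 59.3% of the genes tested in cluster 6.

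In cluster 6 Sfrp4 had 28.0, 134 and 210 normalised CPM in Ikkb_cKO, against 656 and 663 in WT. Both WT libraries lay above all Ikkb_cKO libraries, and the log2 fold change was -2.29 (SE 0.33, adjusted p = 0.000861 in edgeR). Sfrp2 had 168, 168 and 229 normalised CPM in Ikkb_cKO, against 615 and 787 in WT, again without overlap. Its log2 fold change was -1.87 (SE 0.23, adjusted p = 0.000186 in edgeR). Both calls held in all 9 alternative settings run for cluster 6.

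Sfrp1 went the other way in cluster 6, with 1191, 1018 and 984 normalised CPM in Ikkb_cKO, against 612 and 620 in WT. All Ikkb_cKO libraries lay above WT, by 0.78 on the log2 scale (SE 0.17, adjusted p = 0.00441 in edgeR). The call ended when WT library 1 (adjusted p = 0.140) or WT library 2 (adjusted p = 0.125) was left out and with no low-count filter (adjusted p = 0.0714 in edgeR). Over the whole class the log2 value of Sfrp1 was 0.06, and the difference between these was not tested. With equal cells drawn from clusters 2 and 6 alone in each library, the value was 0.71 (adjusted p = 0.0214 in edgeR). That draw holds cells of cluster 6, so it is not separate from the cluster 6 result. Without cluster 3, a setting chosen after seeing the data, the class value was 0.78 (adjusted p = 0.0403 in edgeR).

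In cluster 2 only Sfrp1 passed the filter and it was not called (beside 33.0% of 1198 tested genes, 17.8% higher and 15.2% lower). It had 588, 178 and 159 normalised CPM in Ikkb_cKO, against 230 and 256 in WT, 0.13 on the log2 scale (SE 0.37, adjusted p = 0.812 in edgeR). Library 1 of Ikkb_cKO was the highest and the other 2 Ikkb_cKO libraries the lowest, and without library 1 the value was -0.83 (adjusted p = 0.199 in edgeR). Library values of 3 untested members (Sfrp4, Dkk3 and Apcdd1) did not overlap in cluster 2, beside 55.9% of the tested genes. Sfrp4 had no UMI in the 107 Ikkb_cKO cells of cluster 2, against 305 UMIs in 726 WT cells. Against a floor of 3 UMIs over the genotype it was at least 5.65-fold lower on plain CPM. With no low-count filter Sfrp4 passed there (adjusted p = 0.0359 in edgeR). With the filter it could be tested when 1 Ikkb_cKO library was left out, and it did not pass. The adjusted p in edgeR was 0.770 without library 1, 0.797 without library 2 and 0.847 without library 3. In cluster 15 it was likewise at 0 in 64 Ikkb_cKO cells and at 454 UMIs in 809 WT cells, at least 4.39-fold lower.

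Whether the genotype effect differed between clusters 6 and 2 was tested with library as a block. The difference, cluster 6 minus cluster 2, was 0.70 for Sfrp1 (SE 0.34, adjusted p = 0.549) and -1.37 for Sfrp2 (SE 0.58, adjusted p = 0.462 in edgeR). For Sfrp4 it was 6.89 (SE 10.95, adjusted p = 0.904 in edgeR), a fitted value that is no bound, since Sfrp4 was at 0 in cluster 2 in Ikkb_cKO. None of the 3 passed, beside 0.0446% of 2243 genes. Without Ikkb_cKO library 1 the Sfrp1 difference was 1.43 and passed (adjusted p = 0.0315 in edgeR).

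**Figure D4:**
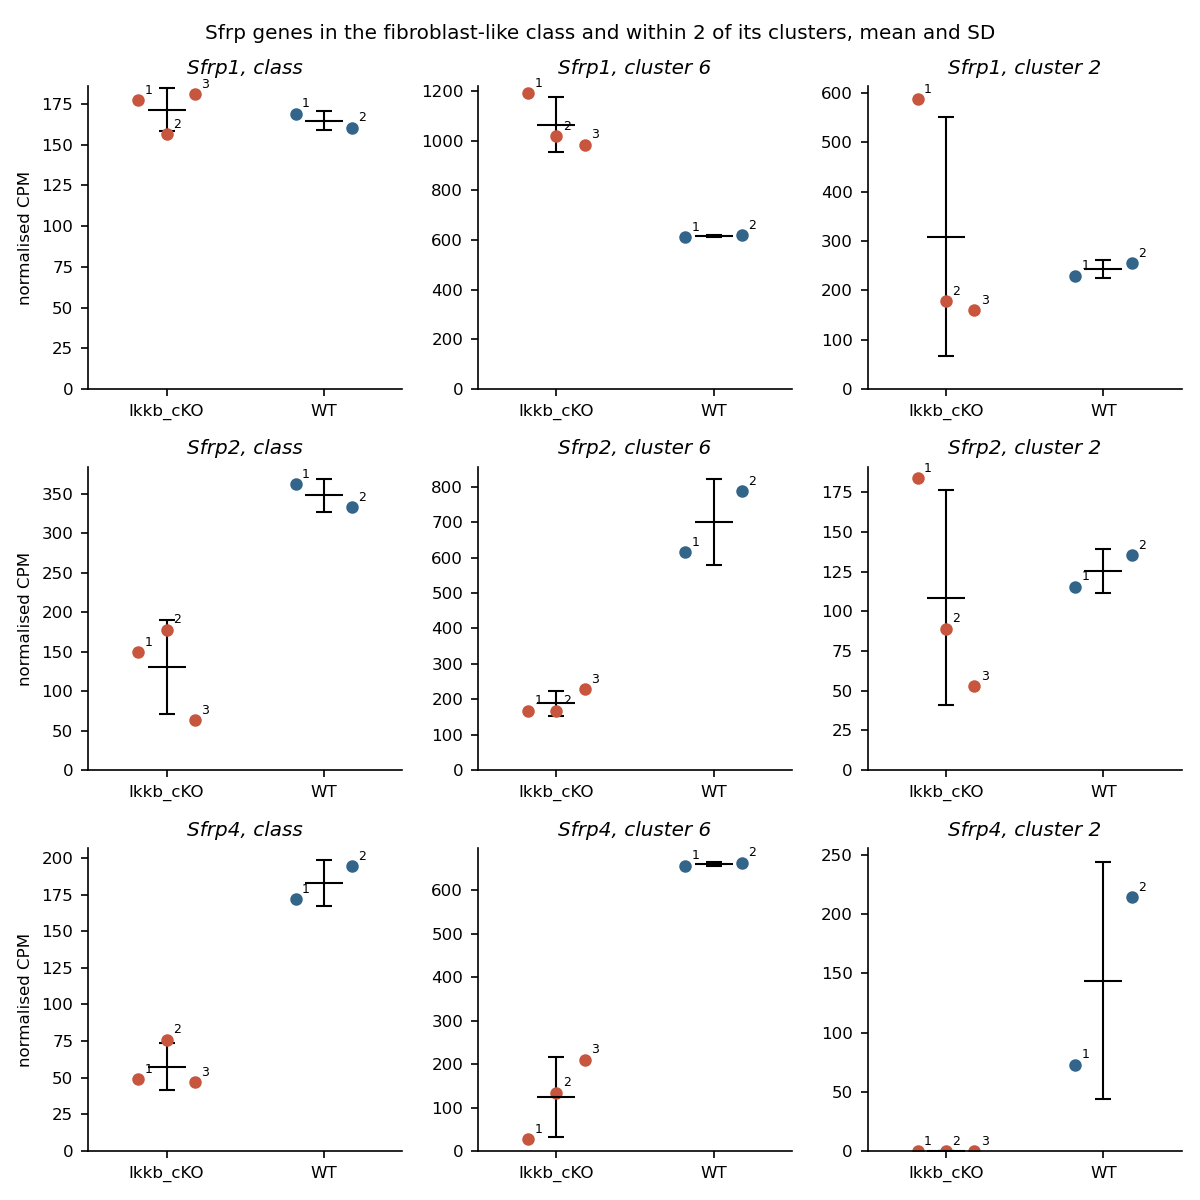
Sfrp1, Sfrp2 and Sfrp4 in the whole fibroblast-like class, in cluster 6 and in cluster 2, in TMM-normalised CPM (y axis), with Ikkb_cKO left of WT. Points are libraries numbered by replicate, with mean and SD. In cluster 6 the Sfrp1 points of Ikkb_cKO (984 to 1191) lie above those of WT (612 and 620), in the class sums they overlap, and Sfrp4 is at 0 in all 3 Ikkb_cKO libraries in cluster 2.

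Outside fibroblast-like cells the members were sparse. In lymphocyte-like and myeloid-like cells none passed the filter, so 0 of 10 were called. Of the 5308 genes tested in lymphocyte-like cells 10.4% were called, 6.52% higher and 3.88% lower, and of the 8974 tested in myeloid-like cells 18.6%, 9.08% higher and 9.47% lower. Library values of 2 members in lymphocyte-like cells and 5 in myeloid-like cells did not overlap between genotypes, beside 48.8% and 45.4% of the tested genes.

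Axin2 was the member with the most UMIs in lymphocyte-like cells. It had 20.3, 22.1 and 21.0 normalised CPM in Ikkb_cKO, from 9, 9 and 30 UMIs, against 12.9 and 8.82 in WT, from 4 and 3 UMIs. All Ikkb_cKO libraries lay above WT, but with no low-count filter the log2 fold change of 0.99 did not pass (SE 0.62, adjusted p = 0.501 in edgeR). The genotype effect on Axin2 in fibroblast-like minus lymphocyte-like cells was -0.53 (SE 0.82, adjusted p = 0.872 in edgeR), beside 3.17% of 9957 genes called in that comparison. Dkk3 had 9, 8 and 5 UMIs in lymphocyte-like cells of Ikkb_cKO, against 0 and 1 in WT. The 22 Dkk3 UMIs of Ikkb_cKO all lay in lymphocyte-like cluster 5, led by Areg, Il13 and Il5, which had 439 cells in Ikkb_cKO and 52 in WT. The ratio of its pooled CPM was 5.82, with a 95% counting interval of 0.941 to 240.

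In myeloid-like cells Sfrp2 had 0 UMIs in 855 Ikkb_cKO cells and 20 in 1676 WT cells, and Sfrp4 had 0 and 10. With no low-count filter Sfrp2 passed there (adjusted p = 0.00704 in edgeR), at least 3.25-fold lower against the floor of 3 UMIs. These levels were at most 4.95 normalised CPM, against 363 and 334 in WT fibroblast-like cells for Sfrp2. Keratinocyte-like cells numbered 8, 10 and 298 in Ikkb_cKO, against 14 and 24 in WT, too few for a test. Of the 316 such cells in Ikkb_cKO, 298 were in library 3. The keratinocyte-like cells of Ikkb_cKO held 60 Wif1, 132 Sfrp1 and 104 Wnt5a UMIs, against 2, 12 and 0 in WT. These UMI counts are not scaled for the larger number of Ikkb_cKO cells. In pooled CPM, Sfrp1 was lower in Ikkb_cKO, at 44.9 against 55.4 in WT. Wif1 had 20.4 pooled CPM in Ikkb_cKO, against 9.23 in WT, and Wnt5a 35.4, against 0 in WT. Counting intervals overlapped between genotypes for Wif1 (15.6 to 26.3 and 1.12 to 33.3 CPM) and for Sfrp1 (37.6 to 53.2 and 28.6 to 96.7 CPM). Of the Ikkb_cKO UMIs, 60 of Wif1, 121 of Sfrp1 and 102 of Wnt5a lay in cluster 14, led by Lgals7, Krt17 and Krt25. Krt25 is a keratin of the hair follicle, and the cluster had 187 cells in Ikkb_cKO and 3 in WT.

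The surrounding pathway was read from a list of 93 other Wnt genes in the fibroblast-like class. Of these 60 were tested, and 14 were called higher and 6 lower, beside 17.4% and 18.2% of all genes. The median log2 fold change was 0.42 over the 60 and 0.04 over all tested genes. Among receptors, 3 of 12 were higher and 0 lower. Among nuclear partners, 5 of 10 were higher and 1, Ctnnbip1, was lower. Among ligands and their secretion genes, Wnt2 and Porcn were lower and the other 4 tested did not pass.

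Wnt2, a ligand expressed in dermal fibroblasts, had 27.2, 38.9 and 13.2 normalised CPM in Ikkb_cKO, against 97.7 and 101 in WT (log2 -1.996, adjusted p = 0.0105 in edgeR). Porcn, the acyltransferase that makes Wnts fit for secretion, had 2.01, 2.71 and 2.80 normalised CPM in Ikkb_cKO, against 7.02 and 8.07 in WT (log2 -1.53, adjusted p = 0.0124 in edgeR). The Porcn values rest on only 2, 3 and 7 UMIs in Ikkb_cKO, against 70 and 93 in WT. Cthrc1, a secreted glycoprotein that binds Wnts and Frizzleds, had 20.1, 31.6 and 47.6 normalised CPM in Ikkb_cKO, against 179 and 185 in WT (log2 -2.40, adjusted p = 0.00274 in edgeR). In these 3 genes the groups did not overlap, which was a condition for naming a gene of this list. Library values of 60.8% of all tested genes did not overlap either. Igfbp4, which binds growth factors and can also block Frizzled and LRP receptors, was lower by a log2 fold change of -0.76 (adjusted p = 0.00591 in edgeR).

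The receptors Fzd4 and Ryk were higher, with log2 fold changes of 0.88 (adjusted p = 0.00940) and 1.29 (adjusted p = 0.0104 in edgeR). Dvl1, which carries the receptor signal into the cell, had 44.3, 41.6 and 28.0 normalised CPM in Ikkb_cKO, against 15.2 and 15.4 in WT (log2 1.27, adjusted p = 0.00832 in edgeR). Gsk3a, a kinase of the degradation complex, was higher by a log2 fold change of 0.80 (adjusted p = 0.0121 in edgeR). In the nucleus, the transcription factor Tcf7l2 had 82.5, 90.4 and 96.4 normalised CPM in Ikkb_cKO, against 41.1 and 46.5 in WT (log2 1.04, adjusted p = 0.00422 in edgeR). The co-repressor Tle3 was higher (log2 0.83, adjusted p = 0.00929), and Ctnnbip1, which keeps β-catenin from TCF factors, was lower (log2 -1.11, adjusted p = 0.00856 in edgeR).

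Among 8 tested genes listed as readouts of the pathway, Ccnd1, a cell-cycle gene with many other inputs, had 23.1, 38.0 and 70.4 normalised CPM in Ikkb_cKO, against 3.81 and 5.81 in WT (log2 3.25, adjusted p = 0.00560 in edgeR). Of the 8, 2 were higher and 6 did not pass. The counts for this list moved with single libraries: without Ikkb_cKO library 3, 24 genes were higher and 20 lower, and without either WT library 0 were higher and 1 lower.

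**Figure D5:**
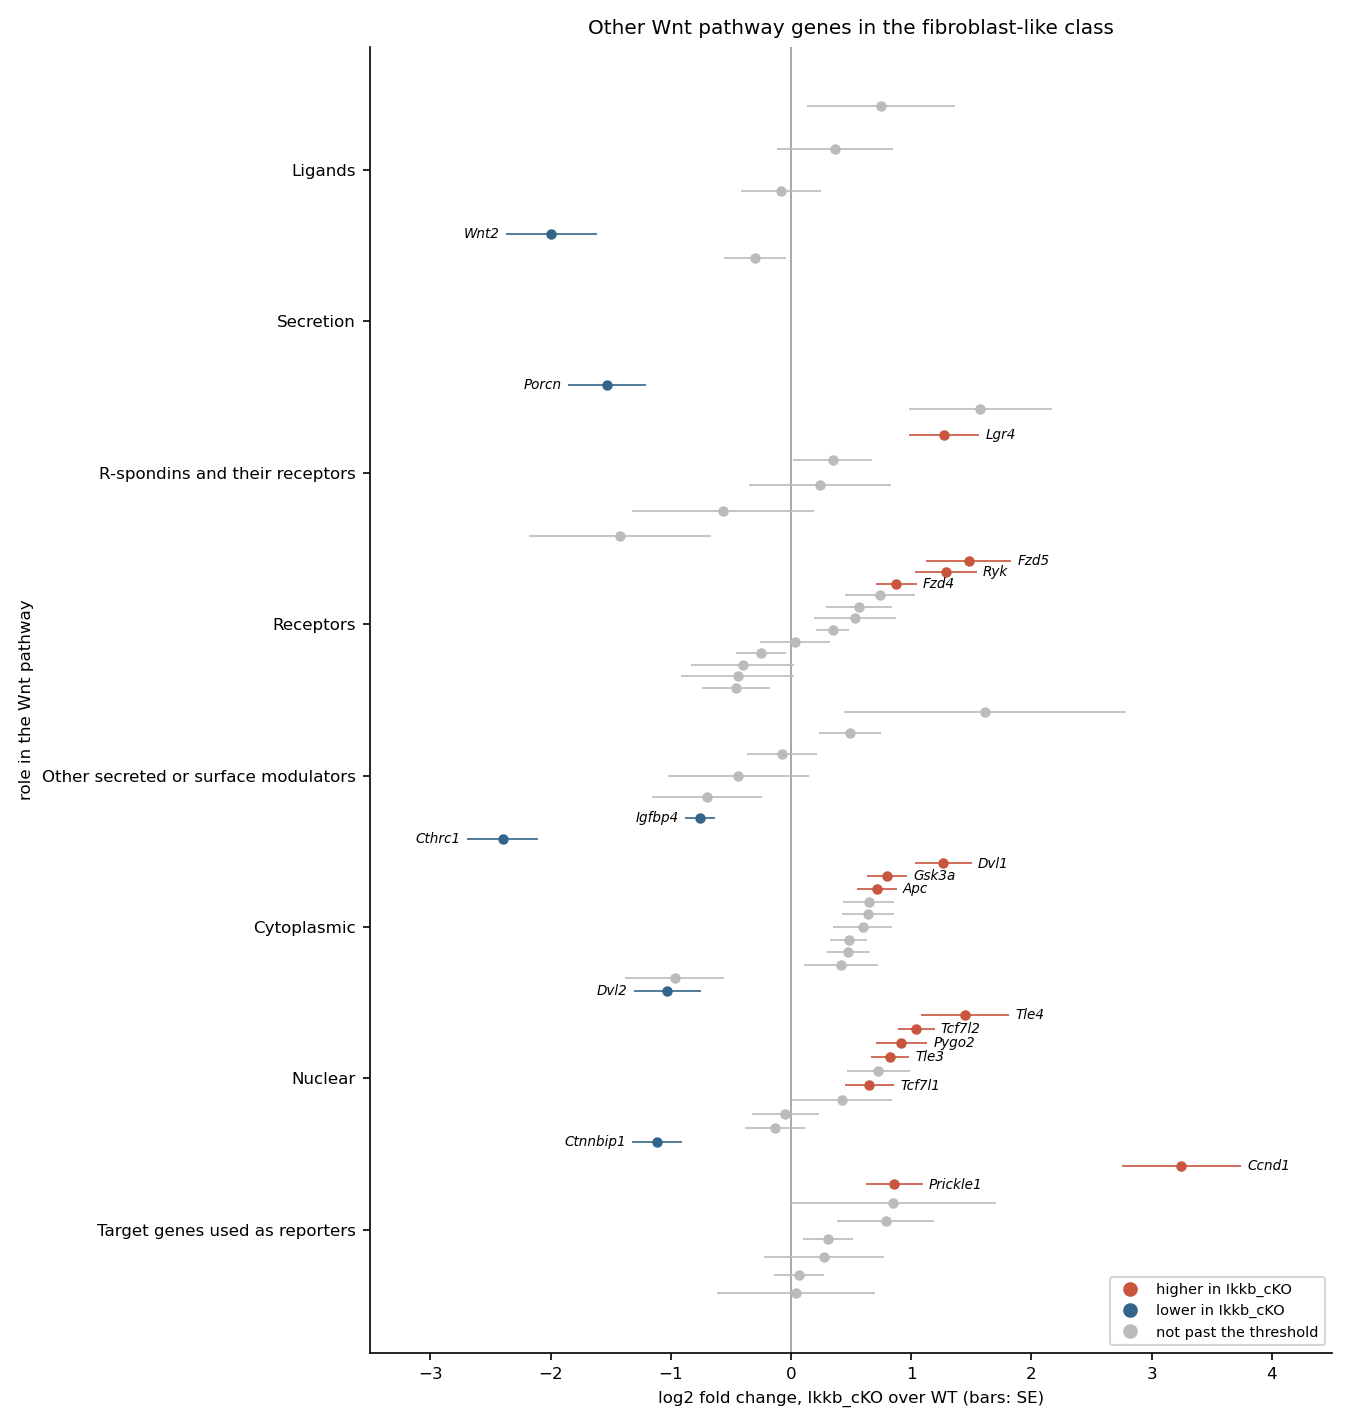
Log2 fold changes (x axis, Ikkb_cKO over WT, bars are SE) of the 60 tested Wnt pathway genes in the fibroblast-like class, grouped by role. Named points passed the threshold, 14 higher and 6 lower in Ikkb_cKO; Cthrc1 and Wnt2 lie furthest to the left and Ccnd1 furthest to the right.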

How the data were processed

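Droplet 3′ single-cell libraries of ventral skin were deposited as matrices of UMI counts per gene and barcode, which the authors made with Cell Ranger 1.3.0 on mm10, per the submitters' processing notes; the file headers name software version 3.0.1. The counts were used as deposited. Cells with fewer than 300 genes or over 10% mitochondrial UMIs were removed. Scrublet's automatic cutoff marked 0.352% of barcodes, so the 240 barcodes with the highest doublet scores, the expected number, were removed instead. In scanpy 1.11.5, 2000 variable genes without the members, 30 components, 15 neighbours and Leiden resolution 1.0 gave 34 clusters, of which 30 were named from at least 3 markers among their top 50 genes. Names were rebuilt from markers and may differ from the study's.

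UMIs were summed per library and class, or per cluster with at least 20 cells in every library, and fitted over all genes with edgeR 4.0.16 (R 4.3.3): filterByExpr, TMM, robust quasi-likelihood test, Benjamini-Hochberg threshold 0.05, no covariate. Differences between classes were fitted with library as a block. Alternatives used DESeq2 1.42.0 and limma 3.58.1. In simulated data with 10441 genes, 100 changed 4-fold and 100 changed 2-fold, and libraries of a genotype differed by random spread only. There 98% of 4-fold and 43% of 2-fold changes were recovered in the class fit, and 9 of 150 calls were false. The real data had many more called genes and 1 Ikkb_cKO library that stood apart, so these rates need not hold for the members. All 10 members are named; of the Wnt pathway list, the 12 called genes with the smallest p whose libraries do not overlap. Members and lists were chosen with earlier results of these data known. The pairing check (correlation of same-numbered libraries' deviations 0.034 and -0.033) does not pair replicate numbers. Class totals of 983585 to 11678287 UMIs set the precision; UMI intervals and floors cover counting error only, at 95% confidence.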

Additional observations from a re-analysis of the deposited data

Results flagged for a closer look

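For Dkk2, the fit of the genotype effect in fibroblast-like minus myeloid-like cells gave a log2 difference of 7.33 (SE 2.34, adjusted p = 0.0483 in edgeR, with library as a block), beside 12.3% of 11487 genes called in that comparison. Dkk2 had 6, 45 and 827 UMIs in fibroblast-like cells of Ikkb_cKO, against 179 and 188 in WT, and 0, 0 and 0 in myeloid-like cells of Ikkb_cKO, against 1 and 1 in WT. With no UMI in myeloid-like cells of Ikkb_cKO the fitted value depends on the prior count and is no bound, and in fibroblast-like cells the effect itself did not pass (adjusted p = 0.151 in edgeR). The difference did not pass without Ikkb_cKO library 2, without Ikkb_cKO library 3 or without either WT library.

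Dkk3 had 22 UMIs in lymphocyte-like cells of Ikkb_cKO, against 1 in WT, and 2 in myeloid-like cells of Ikkb_cKO, against 8 in WT. Its level was higher in all 3 Ikkb_cKO libraries in the lymphocyte-like class and lower in all 3 in the myeloid-like class, and this difference was not tested.

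Wnt5a reached 35.4 CPM in keratinocyte-like cells of Ikkb_cKO, pooled over libraries, and no UMI was counted in 38 such WT cells. Against a floor of 3 UMIs in WT its level over the whole class was at least 2.56-fold higher. Nearly all of its UMIs lay in the keratinocyte-like cluster led by Lgals7, Krt17 and Krt25, which had very few WT cells. The bound therefore does not separate the makeup of the class from the level per cell. Of the 104 Wnt5a UMIs, 102 were in library 3, and the class had too few cells in the other libraries for a test.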

How the results depend on the processing

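Over the alternatives run for the fibroblast-like class, Sfrp4 passed in 22 of 22, Sfrp2 in 16 of 22 and Wif1 in 15 of 19, and none of these changed sign. With 1 library left out at a time, a lone remaining WT library being assumed to vary like the rest, 0 to 1 members were higher and 1 to 4 lower. The same fits gave 163 to 2711 genes higher, 334 to 2829 lower, and 0 to 24 pathway genes higher and 1 to 20 lower. They put Dkk3 between -0.998 and 0.19 (0.11 without Ikkb_cKO library 1), Axin2 between -0.41 and 0.82, Wnt5a between -0.20 and 0.76 and Sfrp1 between -0.0068 and 0.14. In cluster 6 they gave 0 to 1 members higher and 2 to 4 lower, and in cluster 2 Sfrp1 lay between -0.83 and 0.20. Members whose effect differed numbered 0 to 1 in each of the class and cluster differences. Replicate numbers were not paired by the labels or the data; the replicate block, which leaves library 3 of Ikkb_cKO without a partner, gave 24 pathway genes higher and 19 lower, Axin2 at -0.41, Wnt5a at -0.20 and Dkk3 at -0.998. With limma voom, 24 pathway genes were higher and 14 lower, and Axin2 was at -0.016. With no low-count filter, 0 members were higher in the class (Sfrp1 -0.040), 1 lower in myeloid-like cells, 1 lower in cluster 2 (Sfrp1 -0.42), and 0 higher and 4 lower in cluster 6. The stricter cell filter gave 0 members higher, and equal cells per library 0 higher and 1 lower (Sfrp1 -0.095). Equal cells from clusters 2 and 6 gave 280 genes higher and 331 lower, and 5 pathway genes higher and 0 lower. With Ikkb_cKO libraries 1 and 2 summed, Dkk3 was 0.037. After the data were seen, the class was refitted without cluster 23 (0 members higher) and without cluster 3 (3 higher, namely Wif1, Sfrp1 and Wnt5a, with Dkk3 at 0.50). The causes were not tested. Depth limits Frzb, and members outside fibroblast-like cells, to counts with intervals.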
